A study of Homo sapiens with 24 samples.

Results

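The 41 genes described here are products that mark monocytes and macrophages, the phagocytes of the myeloid lineage: proteins of their granules and lysosomes, Fc receptors and the adaptors that carry their signals, integrins, scavenger and lectin receptors, inhibitory receptors, cytokine and chemokine receptors, and the transcription factor KLF4. They were chosen by name, with earlier results of these data known, and all 41 were found among the 23595 genes of the deposited tables. Polyadenylated RNA of 2 human acute myeloid leukaemia (AML) cell lines, IMS-M2 and U937, was sequenced. In each line, cells grown in folic acid (+FA) and cells deprived of it (-FA) received either OTX or the solvent DMSO, which gives 8 groups of 3 libraries, 24 in all: IMS-M2 +FA DMSO, IMS-M2 +FA OTX, IMS-M2 -FA DMSO and IMS-M2 -FA OTX, and the same for U937. OTX is read here as birabresib, from knowledge of the study; this compound blocks the bromodomains of the BET proteins and so keeps them from acetylated chromatin; the labels give only the abbreviation and neither dose nor duration. The series asks how folic acid deprivation alters the response to OTX. IMS-M2 and U937 are established lines and stand for 1 donor each. The labels do not state that the 3 libraries of a group were separate cultures, so p-values measure only the spread between these samples.

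Monocytes leave the bone marrow as descendants of granulocyte-macrophage progenitors, under the direction of the transcription factors PU.1 (SPI1), C/EBP and IRF8, and mature into macrophages in tissues. Their integrins hold them to vessel walls and to opsonised particles, their Fc receptors take up antibody-coated targets through adaptors with activating motifs, and their inhibitory receptors set a threshold for both. U937 is a monocytic line that has long been used as a model of monocyte-to-macrophage maturation, and BET proteins are known to be enriched at large enhancers of lineage genes.

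In FPKM (mapped fragments of a gene relative to its transcript length and to the library's total, so that levels of different genes may be compared), values summed to between 522659 and 644841 per library, and 10418 to 10894 genes reached 1 FPKM. The sequencing depth is unknown. Libraries of one group had Pearson correlations between 0.972 and 0.993 over the genes, which are not independent of each other. The haematopoietic and myeloid identity markers PTPRC, CD33, SPI1, CEBPA, LYN, ITGB2 and CORO1A each averaged at least 1 FPKM in every group. CD14, the lipopolysaccharide co-receptor by which blood monocytes are usually recognised, was close to absent in both lines: its group means were at most 0.0755 FPKM in IMS-M2 and at most 0.244 FPKM in U937. CSF1R, the receptor for the macrophage growth factor M-CSF, reached 1.495 ± 0.0970 FPKM in IMS-M2 +FA DMSO and 1.43 ± 0.196 FPKM in U937 -FA DMSO (mean ± SD, n = 3). CD14 and CSF1R are no members of the list and were named after their values were seen.

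Promoters of 4 of the genes are shown because their transcripts carry the main results below: PLAC8 fell most in all 4 OTX comparisons on the log2(FPKM + 1) scale, AIF1 was the most abundant of the 41 in DMSO-treated IMS-M2, and ITGAM and TYROBP moved in opposite directions in the lines. Each window is the 250 bases before the RefSeq gene start (assembly GRCh38.p14), written 5′ to 3′ on the gene's strand. Capitals mark AGGAAG, the core of PU.1-type ETS sites, or TTGCNNAA, a C/EBP-type site, on either strand (CTTCCT is AGGAAG on the other strand). The windows are chr4:83114730-83114979 (minus strand) for PLAC8, chr6:31614984-31615233 (plus strand) for AIF1, chr16:31259725-31259974 (plus strand) for ITGAM and chr19:35908296-35908545 (minus strand) for TYROBP.
PLAC8: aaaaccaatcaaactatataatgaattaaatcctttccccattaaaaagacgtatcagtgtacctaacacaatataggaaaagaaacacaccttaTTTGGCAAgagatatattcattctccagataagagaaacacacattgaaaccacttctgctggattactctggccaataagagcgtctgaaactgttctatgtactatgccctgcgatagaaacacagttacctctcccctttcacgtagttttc
AIF1: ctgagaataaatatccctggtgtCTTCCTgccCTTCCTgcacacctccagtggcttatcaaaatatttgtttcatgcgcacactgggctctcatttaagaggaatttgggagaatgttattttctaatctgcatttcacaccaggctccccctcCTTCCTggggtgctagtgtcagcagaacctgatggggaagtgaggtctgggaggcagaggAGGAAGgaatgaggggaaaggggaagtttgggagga
ITGAM: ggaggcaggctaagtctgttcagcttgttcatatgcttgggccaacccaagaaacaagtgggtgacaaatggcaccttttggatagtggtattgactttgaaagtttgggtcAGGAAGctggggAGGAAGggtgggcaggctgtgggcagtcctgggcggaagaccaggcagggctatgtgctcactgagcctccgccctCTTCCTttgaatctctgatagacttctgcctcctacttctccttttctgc
TYROBP: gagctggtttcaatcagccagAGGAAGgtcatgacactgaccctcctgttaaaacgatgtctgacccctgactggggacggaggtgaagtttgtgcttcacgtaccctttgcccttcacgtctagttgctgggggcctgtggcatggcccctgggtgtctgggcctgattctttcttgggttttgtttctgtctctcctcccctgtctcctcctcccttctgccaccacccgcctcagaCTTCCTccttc
The AIF1 window holds AGGAAG 4 times, the ITGAM window 3 times and the TYROBP window 2 times, on both strands together. The PLAC8 window holds no AGGAAG and 1 TTGCNNAA.

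A RefSeq promoter was matched by symbol for 32 of the 41 genes. There was no entry for CTSS, LYZ, ITGAX, ITGB2, MRC1, CLEC7A, CD4, SIRPA and CSF2RB. AGGAAG occurred in 22 of the 32 windows (68.8%), against 28.7% of the 35116 promoters of the same length in the table. Members entered with a single promoter per symbol, and the 35116 promoters were not reduced in this way. TTGCNNAA occurred in 7 of 32 (21.9%) against 9.05%. The palindrome TTGCGCAA, which also fits TTGCNNAA, was in none of the 32 and in 0.131% of all promoters. With folic acid, AGGAAG was in the windows of 11 of the 13 genes that fell under OTX in IMS-M2, of 8 of the 9 that rose in U937 and of 6 of the 12 that fell in U937. A match describes the letters only and shows no binding. SPI1, which encodes PU.1 and is named here after its values were seen, went from 85.1 ± 6.49 to 11.3 ± 1.18 FPKM under OTX in IMS-M2 +FA and from 139 ± 0.180 to 94.5 ± 6.88 FPKM in U937 +FA (mean ± SD, n = 3). The log2 changes were -2.80 (limma, adjusted p = 1.27e-10) and -0.55 (adjusted p = 0.000428). Whether the fall of SPI1 had a part in the changes of the 41 genes was not tested.

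The first question is which of these genes the lines express. A total of 19 genes had a group mean of at least 1 FPKM in both lines, 16 only in U937, MRC1 and CLEC7A only in IMS-M2, and VCAN, CD163, LILRB4 and CSF2RA in neither. CSF2RA was listed at 0 throughout, which is no measure of its transcript, as explained below. In IMS-M2 the highest group mean of the 16 U937 genes was 0.834 FPKM (CSF3R). S100A8, S100A9 and MNDA, which U937 expressed at group means of up to 7.30, 57.5 and 148 FPKM, had IMS-M2 group means of at most 0.126 FPKM. In +FA DMSO, the highest IMS-M2 means belonged to AIF1 (534 ± 172 FPKM), ITGB2 (190.5 ± 17.5), LST1 (76.7 ± 4.86) and FCER1G (57.8 ± 6.94). In U937 they belonged to S100A4 (553 ± 114), LYZ (548 ± 105), ITGB2 (298 ± 10.96) and AIF1 (278 ± 65.8 FPKM, mean ± SD, n = 3). The ranges of S100A4 and LYZ overlap in U937, as do those of ITGB2 and AIF1, so their order within each pair is not beyond the spread.

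**Figure D1:**
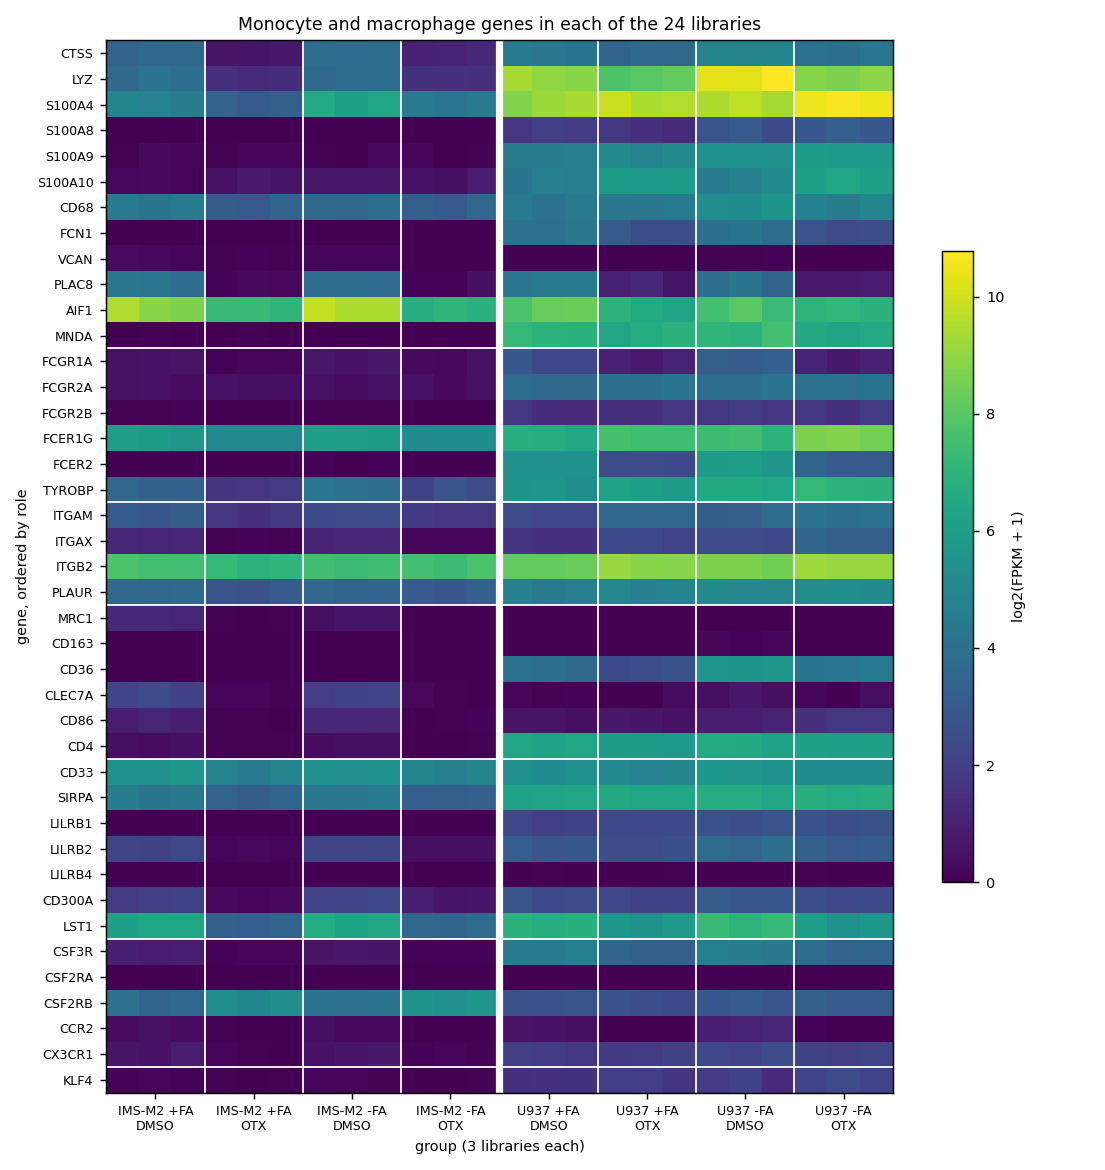
Level of each of the 41 genes (rows, ordered by role, with white lines between roles) in each of the 24 libraries (columns, in 8 groups of 3), as log2(FPKM + 1) on the colour scale. In the IMS-M2 columns most rows darken from DMSO to OTX, and rows such as MNDA, CD36 and FCER2 are bright only in the U937 columns.

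The second question is what OTX did. In IMS-M2 nearly every expressed gene of the group fell. With folic acid, 20 of the 21 tested genes passed the test as lower (Benjamini-Hochberg adjusted p under 0.05, limma on log2(FPKM + 1)) and 1, CSF2RB, as higher. Among all 11223 genes tested in that comparison 33.4% were lower and 29.8% higher. The median log2 change was -1.37 against -0.0266 for all genes, and 14 of the 21 fell by a log2 of 1 or more, against 7.85% of all genes. Without folic acid, 19 of 21 were lower, CSF2RB was higher and ITGB2 did not pass, against 30% lower and 27.5% higher of all genes. The median there was -1.14 against -0.00761, and 12 of 21 fell by at least 1, against 6.18%. The 3 OTX libraries all lay below the 3 DMSO libraries for 20 genes with folic acid (33.8% of all genes) and for 18 without (35%), and above them for 1 in each (30.4% and 33.1%).

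A set of 7 genes, PLAC8, ITGAX, MRC1, CLEC7A, CD86, LILRB2 and CD300A, reached the 1 FPKM needed for testing only in DMSO groups, which favours a fall. The counts above include them, and the list was chosen with earlier results of these data known, so the counts are a description. In these bulk samples, fewer cells of a type and less RNA per cell cannot be told apart.

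In U937 genes of the same list moved both ways, and the share that rose lay near that of all genes. With folic acid, 15 of the 35 tested genes were lower, 11 higher and 9 did not pass, against 27% lower and 29.1% higher of 11194 genes. The median log2 change was -0.15, against 0.0245 for all genes. Without folic acid, 17 were lower, 10 higher and 8 did not pass, against 31.7% lower and 28% higher of all genes, with a median of -0.219 against -0.0187. PLAC8, FCGR1A and CCR2 entered the U937 test only through DMSO groups and CD86 only through an OTX group. Large falls were more common than over all genes: 9 of 35 genes fell by at least 1 with folic acid (5.02% of all genes) and 8 without (6.19%). Rises by at least 1 numbered 2 and 3 (2.94% and 3.38% of all genes). The large falls include PLAC8 and FCGR1A in both conditions and CCR2 without folic acid, whose entry through DMSO groups favours a fall. All 3 OTX libraries lay below the DMSO libraries for 15 genes with folic acid (30.4% of all genes) and 18 without (33.7%), and above them for 11 (32%) and 12 (30.3%).

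Summed levels of markers of other cell types also differed between OTX and DMSO, and their part in the results for the 41 genes was not tested. In IMS-M2 +FA, lymphoid markers (12 listed, with CD3G, MS4A1 and PAX5 at 0 in both groups) summed to between 69.2 and 75.6 FPKM in DMSO, with 5 genes at 1 FPKM or more, and between 11.2 and 14.1 FPKM in OTX, with 2. Granulocyte and myeloblast granule markers (11 listed, with CAMP, CEACAM8, DEFA4 and MMP8 at 0) went from between 38.1 and 41.9 FPKM (2 genes) to between 1.86 and 2.77 FPKM (1 gene). Dendritic cell markers (10 listed, with XCR1 and LAMP3 at 0) went from between 41.3 and 45.8 FPKM (2 genes) to between 8.67 and 9.76 FPKM (2 genes). Stromal and epithelial markers (14 listed, with EPCAM, KRT19, LUM, DCN and CDH1 at 0) went from between 112 and 116 FPKM (6 genes) to between 72.7 and 77.7 FPKM (4 genes). Most of the last 3 sums in DMSO came from 1 gene each: CTSG (mean 35.8 FPKM), CLEC9A (31.8) and KRT18 (82.8). In OTX the means of these genes were 2.08, 1.11 and 64.9 FPKM. In U937 +FA, granule markers went from between 2735 and 3302 FPKM (4 genes) to between 1172 and 1681 FPKM (5 genes), and lymphoid markers, nearly all of it NKG7 (means of 224.6 and 63.5 FPKM), from between 219.5 and 249.7 FPKM (4 genes) to between 64.6 and 70.7 FPKM (2 genes). In U937 -FA the granule sums overlap, at 2209 to 3531 FPKM in DMSO and 1817 to 2304 FPKM in OTX.

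**Figure D2:**
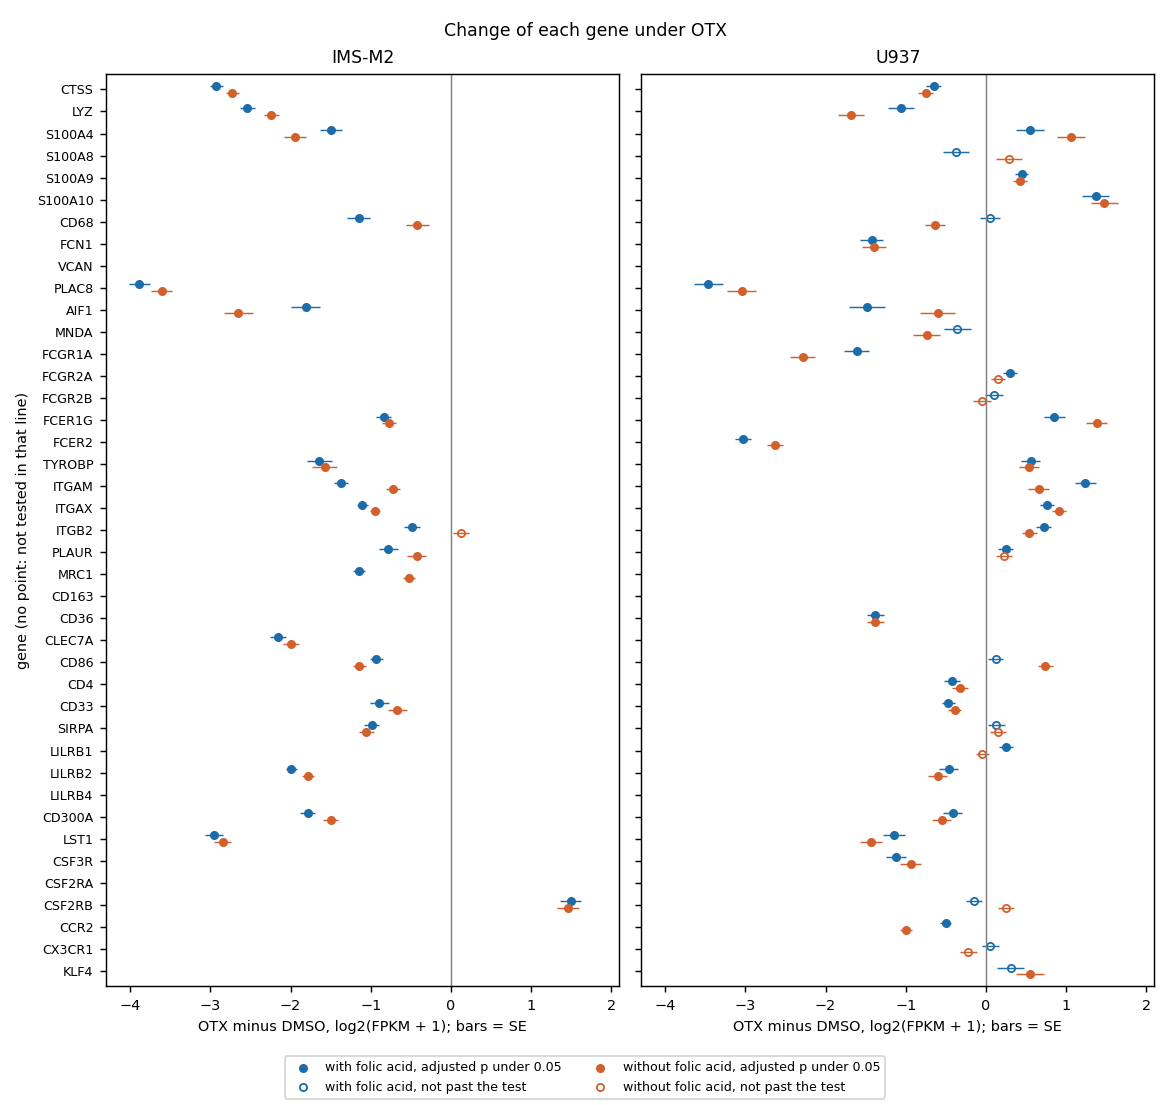
OTX minus DMSO log2 change of each gene on the log2(FPKM + 1) scale (horizontal axis, bars are standard errors from limma) in IMS-M2 (left) and U937 (right), with folic acid in blue and without in orange. Filled points passed an adjusted p of 0.05. In IMS-M2 all points but those of CSF2RB and 1 of ITGB2 lie left of 0, and in U937 they lie on both sides.

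Among granule, lysosome and calcium-binding products, all 6 that were tested in IMS-M2 (CTSS, LYZ, S100A4, CD68, PLAC8 and AIF1) fell in both folic acid conditions. Over all genes 33.4% were lower in IMS-M2 +FA and 30% in -FA. PLAC8 reached 1 FPKM only in DMSO groups in both lines, which favours a fall. In U937 5 of 11 fell and 3 rose with folic acid, and 7 fell and 3 rose without. Over all genes 27% were lower and 29.1% higher with folic acid there, and 31.7% and 28% without, so the rises lie near the share of all genes. PLAC8, a small cysteine-rich protein of myeloid cells, showed the deepest fall in each comparison on the log2(FPKM + 1) scale. In IMS-M2 +FA, PLAC8 held 18.9, 17.5 and 12.8 FPKM in the DMSO libraries and 0.0833, 0.227 and 0.179 FPKM in the OTX libraries. In IMS-M2 -FA it went from 13.9, 12.9 and 12.7 to 0.0662, 0.0792 and 0.350 FPKM. U937 +FA libraries held 18.1, 21.7 and 20.9 FPKM in DMSO and 1.01, 1.27 and 0.549 FPKM in OTX. U937 -FA libraries held 13.9, 17.4 and 9.77 and 0.727, 0.734 and 0.748 FPKM. No OTX library of either line exceeded 1.27 FPKM, and no DMSO library was under 9.77 FPKM. The log2 changes of PLAC8 in these 4 comparisons were -3.89, -3.61, -3.46 and -3.05 (SE 0.131 in IMS-M2 and 0.179 in U937, largest adjusted p = 1.66e-07).

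CTSS encodes cathepsin S, the protease that trims the invariant chain of MHC class II. In IMS-M2 +FA it went from 9.70, 11.4 and 11.02 FPKM in DMSO to 0.493, 0.512 and 0.600 FPKM in OTX, a 19.99-fold fall of the mean. Without folic acid the values were 13.6, 12.5 and 13.2 and 1.01, 1.09 and 1.31 FPKM. The U937 fall was shallower: from 20.6, 18.3 and 17.3 to 10.2, 12.05 and 12.4 FPKM in +FA and from 28.5, 26.9 and 27.9 to 15.7, 14.7 and 17.9 FPKM without. No OTX library reached a DMSO library in any of the 4 tables. On the log2 scale CTSS fell by 2.93 and 2.73 in IMS-M2 (SE 0.0792) and by 0.65 and 0.75 in U937 (SE 0.0961, largest adjusted p = 0.000143).

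LYZ, lysozyme, differed widely in level between the lines and fell in both. IMS-M2 +FA libraries held 12.4, 16.4 and 13.9 FPKM in DMSO and 1.73, 1.40 and 1.70 in OTX, and -FA libraries 11.9, 12.9 and 12.9 and 1.95, 1.93 and 1.72 FPKM. In U937 +FA the values were 665, 513 and 465 FPKM in DMSO and 225, 261 and 294 FPKM in OTX. U937 -FA held the highest levels of the whole list in DMSO, 1311, 1264 and 1759 FPKM, and 454, 405 and 479.8 FPKM in OTX. The groups did not overlap within any table, and the log2 changes were -2.54, -2.24, -1.06 and -1.68 (largest adjusted p = 0.000195).

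AIF1, an actin-bundling calcium-binding protein of macrophages, was the most abundant of the 41 in IMS-M2 DMSO. Its +FA libraries held 728, 469.8 and 403 FPKM in DMSO, where replicate 1 was far above the others, and 154, 157 and 131 FPKM in OTX. The -FA libraries held 883, 698 and 696 and 109, 132 and 117 FPKM. U937 +FA went from 203, 305 and 326 to 123, 94.8 and 77.3 FPKM, and U937 -FA from 183, 261 and 162 to 127, 141 and 122 FPKM, with every OTX library below every DMSO library of its table. AIF1 changed by a log2 of -1.81 and -2.65 in IMS-M2 and of -1.48 and -0.60 in U937 (largest adjusted p = 0.0339). The last of these was lost without DMSO column 0 or 1 or without any 1 of the OTX columns of U937 -FA (adjusted p from 0.0505 to 0.126, log2 change from -0.66 to -0.40), and with no filter on low values (adjusted p = 0.0607).

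S100A4, a calcium-binding protein that acts on myosin and cell motility, fell in IMS-M2 and rose in U937. It went from 30.1, 26.2 and 21.8 to 9.49, 7.29 and 8.74 FPKM in IMS-M2 +FA and from 94.4, 68.7 and 80.4 to 21.2, 18.0 and 21.2 FPKM in -FA. U937 +FA libraries held 432, 567 and 659 FPKM in DMSO and 979, 707 and 736 FPKM in OTX, and -FA libraries 697, 868 and 639 and 1471, 1648 and 1434 FPKM. Groups did not overlap in either line. The log2 changes were -1.50 and -1.95 in IMS-M2 and 0.55 (adjusted p = 0.0186) and 1.06 (adjusted p = 0.000311) in U937. Without DMSO replicate 1 or OTX replicate 1 the U937 +FA call was lost (log2 change 0.38 and 0.40, adjusted p = 0.0718 and 0.0763).

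CD68, a lysosomal membrane glycoprotein used to stain macrophages, fell in IMS-M2 from 20.5, 17.5 and 20.7 to 8.09, 7.11 and 9.72 FPKM with folic acid (log2 change -1.15, adjusted p = 2.01e-05). Without folic acid it went from 11.5, 10.8 and 13.9 to 8.66, 7.03 and 10.8 FPKM, where the highest OTX and lowest DMSO library touched. That call (log2 change -0.42, adjusted p = 0.0247) was lost without DMSO replicate 3 (-0.32, 0.107), OTX replicate 1 (-0.42, 0.0585) or OTX replicate 2 (-0.28, 0.113), and with no filter on low values (0.0512). In U937 CD68 held 20.5, 16.1 and 20.1 FPKM in DMSO and 19.1, 18.2 and 21.1 in OTX with folic acid, which overlap. It fell from 38.5, 37.0 and 46.2 to 25.6, 22.5 and 29.1 FPKM without folic acid (log2 change -0.64, adjusted p = 0.000931).

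Of the remaining products of this group, FCN1, S100A10, S100A8, S100A9 and MNDA were expressed in U937 only and VCAN in neither line. FCN1, a lectin secreted by monocytes, fell from 15.8, 15.7 and 18.9 to 7.26, 4.77 and 4.999 FPKM in +FA and from 14.7, 17.5 and 13.1 to 5.85, 4.61 and 4.84 FPKM without (log2 change -1.43 and -1.40). S100A10, the partner of annexin A2 at the plasma membrane, rose from 17.2, 25.2 and 23.8 to 59.4, 53.9 and 60.8 FPKM and from 20.8, 25.4 and 33.9 to 71.8, 80.8 and 71.5 FPKM (1.37 and 1.47, adjusted p = 3.78e-05 and 2e-05). In each case the 3 OTX libraries lay on one side of the 3 DMSO libraries.

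S100A8 and S100A9 form calprotectin, a zinc-binding antimicrobial complex, and their genes lie 29.0 kb apart on chromosome 1. S100A9 rose from 23.1, 22.2 and 23.4 to 34.6, 27.4 and 32.8 FPKM in +FA and from 44.1, 42.6 and 41.3 to 59.3, 56.8 and 56.5 FPKM without (0.44 and 0.42, adjusted p = 0.000972 and 0.00123). S100A8 held 2.29, 2.95 and 2.76 FPKM in +FA DMSO against 2.31, 1.80 and 1.44 in OTX, and 5.95, 7.29 and 4.33 in -FA DMSO against 6.76, 8.57 and 6.56 in OTX. Its groups overlap in both tables and neither comparison passed (adjusted p = 0.0731 and 0.148). MNDA, a nuclear protein of the interferon-inducible PYHIN family, went from 144, 126 and 118 to 81.9, 103 and 119 FPKM with folic acid, where the groups overlap (adjusted p = 0.0945). It fell from 132, 125 and 188 to 90.5, 76.7 and 94.6 FPKM without (-0.74, adjusted p = 0.00296). VCAN, a matrix proteoglycan of classical monocytes, stayed at group means of at most 0.184 FPKM in IMS-M2 and 0.0508 FPKM in U937.

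The Fc receptor adaptors moved in opposite directions in the lines. FCER1G encodes the common gamma chain, which pairs with activating Fc receptors. It fell in IMS-M2 from 64.6, 58.1 and 50.8 to 31.9, 31.8 and 31.4 FPKM in +FA and from 67.7, 62.4 and 58.2 to 35.7, 36.5 and 36.6 FPKM without. In U937 it rose from 107, 104 and 90.4 to 197, 175 and 174 FPKM and from 165, 175 and 123 to 402, 430.1 and 365 FPKM. The 6 libraries of each table separate fully, and the log2 changes were -0.84 and -0.77 in IMS-M2 and 0.85 and 1.38 in U937 (largest adjusted p = 0.000196). TYROBP (DAP12), the adaptor of TREM and related receptors, did likewise. IMS-M2 held 10.6, 9.05 and 9.04 FPKM in +FA DMSO against 2.21, 2.29 and 2.66 in OTX, and 17.6, 15.6 and 13.4 in -FA DMSO against 3.19, 6.10 and 4.62 in OTX. U937 held 47.5, 49.3 and 39.1 against 76.1, 66.8 and 59.0 FPKM with folic acid and 92.5, 92.3 and 80.6 against 143, 124 and 120.2 FPKM without. TYROBP thus fell by 1.64 and 1.58 on the log2 scale in IMS-M2 and rose by 0.56 and 0.54 in U937 (largest adjusted p = 0.00244).

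The Fc receptors themselves were U937 genes. FCER2 (CD23), the low-affinity IgE receptor, fell most in U937 after PLAC8 on the log2(FPKM + 1) scale: from 43.0, 43.0 and 45.5 to 4.64, 4.54 and 4.23 FPKM in +FA and from 60.4, 62.4 and 51.8 to 10.02, 7.88 and 7.78 FPKM without (-3.04 and -2.63, SE 0.1, adjusted p = 6.56e-09 and 1.41e-08). FCGR1A (CD64), the high-affinity IgG receptor, fell from 6.85, 4.13 and 4.08 to 0.962, 0.712 and 1.12 FPKM, with DMSO replicate 1 highest, and from 8.64, 7.71 and 8.46 to 1.07, 0.668 and 0.985 FPKM without folic acid (-1.62 and -2.29). FCGR2A, an activating low-affinity IgG receptor, rose slightly with folic acid, from 12.8, 11.8 and 12.4 to 14.8, 14.6 and 17.0 FPKM (0.30, adjusted p = 0.0102). Without folic acid its groups overlap, at 13.6, 14.1 and 16.1 and 15.8, 15.6 and 17.3 FPKM (adjusted p = 0.157). FCGR2B, the inhibitory counterpart, had means of 1.88 and 2.06 FPKM in DMSO and OTX with folic acid and of 2.44 and 2.32 FPKM without, and did not pass in either (adjusted p = 0.465 and 0.705). FCGR1A, FCGR2A and FCGR2B have near-identical paralogs, and FCGR1A shares its locus in the tables with HIST2H2BF, so the split of fragments among these genes is uncertain. With folic acid, of the 3 IgG receptors FCGR2A rose, FCGR1A fell and FCGR2B did not pass.

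All 4 integrin and urokinase receptor genes fell in IMS-M2 +FA and rose in U937 +FA, where 33.4% of all genes were lower and 29.1% higher, respectively. In IMS-M2, ITGAX reached 1 FPKM only in DMSO groups, which favours a fall there. ITGAM (CD11b) and ITGAX (CD11c) are the alpha chains that pair with the beta chain ITGB2 (CD18) to form complement receptors, and their genes lie 22.3 kb apart on chromosome 16. ITGAM fell from 7.31, 6.50 and 7.94 to 2.23, 1.89 and 2.47 FPKM in IMS-M2 +FA and from 4.34, 4.47 and 4.77 to 2.52, 2.24 and 2.28 FPKM in -FA. In U937 it rose from 4.56, 3.90 and 3.99 to 10.99, 10.8 and 11.6 FPKM and from 8.11, 8.48 and 12.9 to 16.3, 14.5 and 16.4 FPKM. Every table separates its OTX from its DMSO libraries, and the log2 changes were -1.37, -0.72, 1.24 and 0.66 (largest adjusted p = 0.00151). ITGAX fell in IMS-M2 from means of 1.25 ± 0.0919 to 0.0435 ± 0.0148 FPKM in +FA and from 1.17 ± 0.0868 to 0.124 ± 0.0155 FPKM without. U937 went from 2.12, 1.88 and 1.93 to 4.34, 4.21 and 3.56 FPKM in +FA and from 4.65, 4.46 and 4.16 to 10.4, 8.57 and 8.75 FPKM without. Its log2 changes were -1.10, -0.95, 0.76 and 0.91. With a pseudocount of 0.1 FPKM the IMS-M2 falls of ITGAX were -3.23 and -2.50, because its OTX values lie far under 1 FPKM.

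ITGB2 was among the most abundant of the 41 in every group. It fell modestly in IMS-M2 +FA, from 211, 179.8 and 181 to 148, 123 and 138 FPKM (-0.48, adjusted p = 0.00112), and did not pass in IMS-M2 -FA, at 179, 161 and 176 and 189, 168 and 207 FPKM, where the groups overlap (0.12, adjusted p = 0.314). In U937 it rose from 294, 289 and 310.2 to 558, 471 and 451 FPKM and from 397, 407 and 362 to 592, 551 and 549 FPKM (0.72 and 0.54). ITGB2-AS1 lies at the same locus, and whether the authors' counting used strand is not given in the sources used here. PLAUR, the urokinase receptor, fell in IMS-M2 from 11.7, 10.6 and 12.2 to 6.01, 5.38 and 7.53 FPKM and from 11.5, 10.1 and 10.3 to 7.62, 6.50 and 8.90 FPKM (-0.78 and -0.43, adjusted p = 9.5e-05 and 0.00772). In U937 +FA it held 25.4, 20.8 and 23.1 and 30.4, 24.7 and 27.5 FPKM, which overlap, and in -FA 34.1, 31.1 and 30.9 and 39.0, 37.8 and 36.0 FPKM. The U937 +FA change of PLAUR (0.24, adjusted p = 0.0465) sits at the threshold: it was lost without DMSO replicate 2 or 3 or OTX replicate 1 or 3 (adjusted p from 0.0934 to 0.179), with no filter (0.0532), after rescaling (0.0618), and in a fit of its table alone (0.0913). The -FA change was 0.22 (adjusted p = 0.0599).

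**Figure D3:**
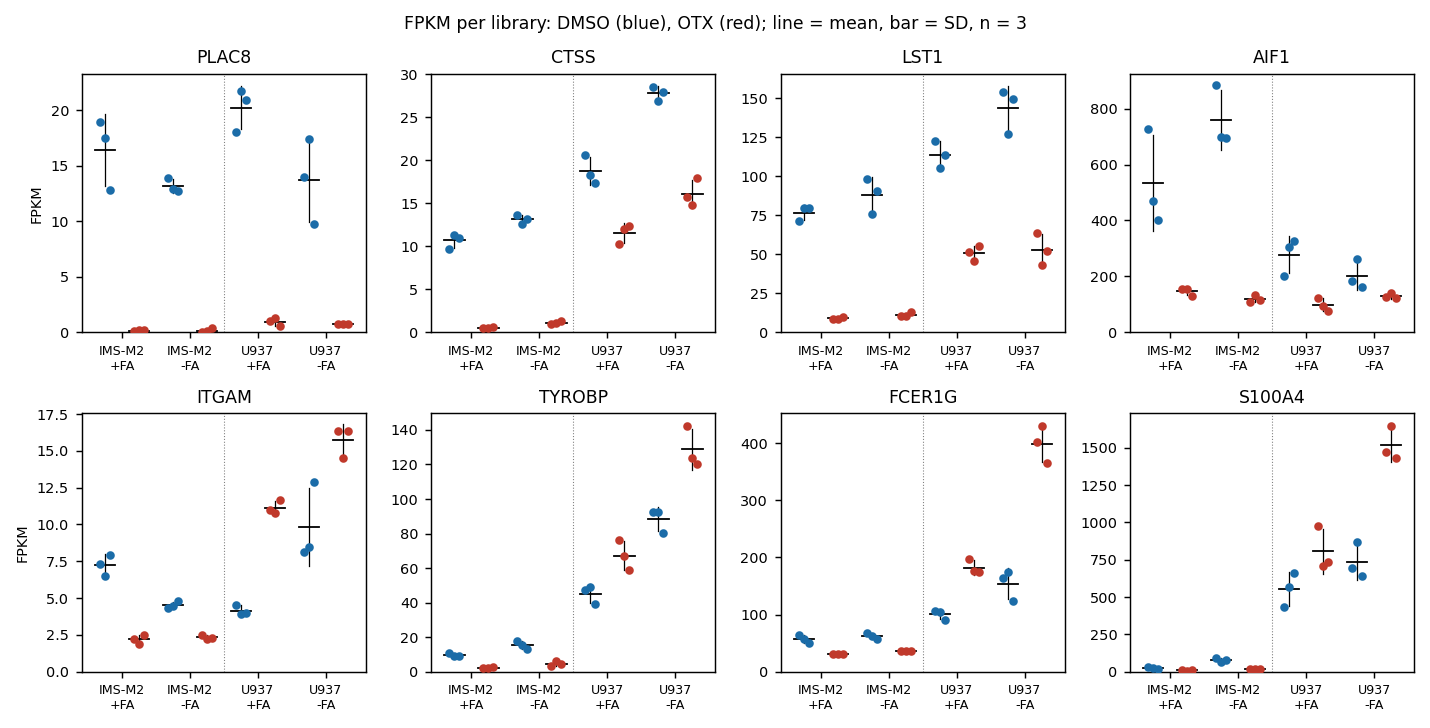
FPKM of PLAC8, CTSS, LST1, AIF1, ITGAM, TYROBP, FCER1G and S100A4 in each library (points), with DMSO in blue and OTX in red, the group mean as a horizontal line and the SD (n = 3) as a bar. The top row falls under OTX in all 4 tables, and the bottom row falls in IMS-M2 and rises in U937.

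Among scavenger, lectin and T cell contact receptors, MRC1, CLEC7A and CD86 were tested in IMS-M2 and fell in both folic acid conditions. Over all genes 33.4% were lower with folic acid and 30% without, and these 3 genes reached 1 FPKM there only in DMSO groups. CLEC7A (dectin-1), the receptor for fungal beta-glucan, fell from means of 3.87 ± 0.584 to 0.0853 ± 0.0432 FPKM in +FA and from 3.27 ± 0.313 to 0.0730 ± 0.0809 FPKM without (-2.16 and -1.99). MRC1, the mannose receptor, fell from 1.28 ± 0.101 to 0.0283 ± 0.0248 FPKM in +FA and from 0.454 ± 0.109 to 0.00797 ± 0.00973 FPKM without (-1.15 and -0.53), and shares its locus with MIR511-2. MRC1 was listed at 0 in all 12 U937 libraries. CD86, a costimulatory ligand for T cells, fell in IMS-M2 from 0.966 ± 0.207 to 0.0278 ± 0.0104 FPKM and from 1.30 ± 0.0729 to 0.0433 ± 0.0284 FPKM (-0.93 and -1.14). In U937 it had means of 0.444 and 0.569 FPKM with folic acid, which did not pass (adjusted p = 0.287), and rose from 0.890 ± 0.142 to 2.16 ± 0.253 FPKM without (0.74, adjusted p = 3.61e-05).

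CD36, a scavenger receptor for oxidised lipoproteins and fatty acids, was a U937 gene and fell by the same log2 in both conditions: from 16.4, 14.5 and 12.4 to 4.42, 4.86 and 5.43 FPKM in +FA and from 50.3, 47.2 and 51.6 to 17.2, 17.7 and 20.6 FPKM without (-1.38 and -1.38, SE 0.107). CD4, present on human monocytes as well as on T cells, fell in U937 from 80.0, 73.1 and 83.4 to 60.9, 58.7 and 56.2 FPKM (-0.42, adjusted p = 0.0037) and from 96.0, 91.8 and 73.9 to 71.2, 66.7 and 69.7 FPKM (-0.32, adjusted p = 0.0153). The -FA call for CD4 was lost without DMSO column 0 (-0.25, 0.0713), DMSO column 1 (-0.28, 0.0501) or OTX column 1 (-0.30, 0.0555). CD163, the haemoglobin scavenger receptor of macrophages, stayed at group means of at most 0.0129 FPKM in IMS-M2 and 0.117 FPKM in U937.

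All 5 inhibitory receptor genes tested in IMS-M2 fell in both conditions, and 4 of these fell in U937 in both conditions as well. Over all genes 33.4% and 30% were lower in IMS-M2 with and without folic acid, and 27% and 31.7% in U937. Of the 5, LILRB2 and CD300A reached 1 FPKM in IMS-M2 only in DMSO groups, which favours a fall there. LST1, a small transmembrane protein of leukocytes that shares its locus with NCR3, showed the deepest fall of this group on the log2(FPKM + 1) scale, while LILRB2 had the larger ratio of means in IMS-M2 (23.98-fold against 8.51-fold with folic acid). LST1 went from 71.1, 79.4 and 79.6 to 8.86, 8.26 and 9.93 FPKM in IMS-M2 +FA and from 98.2, 76.0 and 90.4 to 10.7, 10.6 and 12.8 FPKM in -FA. In U937 it went from 123, 106 and 113 to 51.7, 45.8 and 55.0 FPKM and from 154, 127 and 149.8 to 63.4, 43.1 and 52.4 FPKM. No OTX library reached a DMSO library of its table, and the log2 changes were -2.96, -2.85, -1.15 and -1.43 (largest adjusted p = 2.67e-05). LST1 lies 22.2 kb from AIF1 on chromosome 6, and both fell in all 4 comparisons.

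LILRB2, an inhibitory receptor for MHC class I, fell in IMS-M2 from 3.58 ± 0.333 to 0.149 ± 0.0193 FPKM in +FA and from 3.65 ± 0.0860 to 0.352 ± 0.0145 FPKM without (-1.99 and -1.78). In U937 it fell from 8.35, 6.25 and 6.66 to 4.65, 4.55 and 5.27 FPKM and from 12.9, 10.9 and 14.2 to 8.84, 7.12 and 7.92 FPKM (-0.47 and -0.60, adjusted p = 0.00597 and 0.00111). CD300A, an inhibitory receptor for phospholipids of dying cells, fell in IMS-M2 from 3.02 ± 0.283 to 0.164 ± 0.0125 FPKM and from 3.71 ± 0.257 to 0.673 ± 0.214 FPKM (-1.79 and -1.50). In U937 CD300A fell from 6.21, 4.24 and 4.71 to 3.94, 3.34 and 3.24 FPKM and from 7.56, 6.53 and 6.89 to 4.97, 4.03 and 4.39 FPKM (-0.42 and -0.55). In both lines the OTX libraries of LILRB2 and CD300A all lay below the DMSO libraries.

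CD33, a sialic acid-binding lectin and a target of antibody therapy in AML, fell by less. In IMS-M2 it went from 45.2, 44.5 and 52.1 to 26.5, 20.5 and 28.3 FPKM in +FA and from 45.2, 41.1 and 45.0 to 28.5, 23.6 and 29.6 FPKM without (-0.90 and -0.67). In U937 it went from 41.3, 37.1 and 41.9 to 30.6, 26.4 and 29.1 FPKM and from 52.5, 48.6 and 45.7 to 37.3, 37.3 and 36.7 FPKM (-0.47 and -0.39, largest adjusted p of the 4 0.00168). SIRPA, the receptor for the do-not-eat-me signal CD47, fell in IMS-M2 from 21.9, 17.4 and 18.7 to 9.46, 8.17 and 10.1 FPKM and from 19.1, 18.3 and 19.9 to 8.47, 8.51 and 8.96 FPKM (-0.99 and -1.06). In U937 it held 73.2, 77.0 and 82.6 and 93.0, 79.9 and 82.0 FPKM with folic acid and 100.8, 103 and 80.4 and 110.0, 99.4 and 104 FPKM without. Those groups overlap, and neither passed (adjusted p = 0.316 and 0.235).

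LILRB1, expressed in U937 only, held 3.97, 3.09 and 3.39 FPKM in DMSO and 4.30, 4.27 and 4.37 FPKM in OTX with folic acid, and 5.49, 5.02 and 6.06 and 5.52, 5.05 and 5.39 FPKM without. It passed as higher with folic acid (0.25, adjusted p = 0.0261) but not without (adjusted p = 0.676). The call was lost without DMSO replicate 2 or 3 or any 1 of the OTX replicates (adjusted p from 0.0522 to 0.111). LILRB4 stayed at group means of at most 0.00764 FPKM in IMS-M2 and 0.0257 FPKM in U937. The LILR genes are close paralogs, so the division of fragments among them is uncertain.

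CSF2RB, the shared signalling chain of the GM-CSF receptor family, was the only tested gene of the list that passed as higher in IMS-M2. S100A10, not tested there because it stayed under 1 FPKM, held 0.190, 0.200 and 0.137 FPKM in IMS-M2 +FA DMSO and 0.443, 0.696 and 0.512 FPKM in OTX, which do not overlap. CSF2RB went from 15.3, 10.1 and 11.1 to 38.3, 30.2 and 38.8 FPKM in +FA and from 15.99, 15.8 and 16.1 to 46.9, 42.0 and 48.7 FPKM without (1.49 and 1.46, SE 0.134, adjusted p = 9.59e-07 and 1.37e-06). The OTX libraries all lay above the DMSO libraries. In U937 it held 5.31, 5.56 and 6.02 and 5.63, 4.94 and 4.40 FPKM with folic acid, which overlap, and 6.75, 7.60 and 5.97 and 8.88, 7.77 and 7.88 FPKM without, which separate. Neither passed (adjusted p = 0.219 and 0.0528). CSF2RA, the chain that gives this receptor its specificity for GM-CSF, was listed at 0 in all 24 libraries. The same holds for 19 of the 20 genes listed at that end of the X chromosome, among them SLC25A6, CD99 and GTPBP6, which nearly all cells express, so the 0 of CSF2RA is no measure of its transcript.

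CSF3R, the G-CSF receptor, fell in U937 from 20.3, 20.7 and 24.01 to 10.6, 8.88 and 8.71 FPKM and from 24.02, 22.9 and 18.5 to 12.9, 9.55 and 10.2 FPKM (-1.12 and -0.94, adjusted p = 2.2e-05 and 7.55e-05). CCR2, the chemokine receptor that guides classical monocytes out of the marrow, was low and fell from means of 0.425 ± 0.0502 to 0.00384 ± 0.00666 FPKM in +FA and from 1.07 ± 0.159 to 0.0334 ± 0.0250 FPKM without (-0.50 and -1.003). At a pseudocount of 0.1 FPKM these changes were -2.34 and -3.15. CX3CR1, the fractalkine receptor of patrolling monocytes, had means of 2.69 and 2.83 FPKM with folic acid and 4.01 and 3.30 FPKM without, and did not pass (adjusted p = 0.659 and 0.0806). KLF4, a transcription factor of monocyte maturation, had means of 1.90 ± 0.0701 and 2.62 ± 0.483 FPKM with folic acid (adjusted p = 0.144). Without folic acid it rose from 2.46 ± 0.890 to 3.96 ± 0.569 FPKM (0.55, adjusted p = 0.0161). That call was lost without OTX column 1 (0.46, adjusted p = 0.068), and the change was 0.33 (adjusted p = 0.045) without DMSO column 2, the lowest of its group. CSF3R, CX3CR1, CCR2 and KLF4 were under 1 FPKM in every IMS-M2 group.

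The third question is whether the lines responded differently. The OTX change in U937 minus that in IMS-M2 was tested over all 24 libraries. With folic acid, 16 of the 19 genes expressed in both lines had a higher change in U937, 1 (CSF2RB) a lower one and 2 (PLAC8 and AIF1) did not pass. Over all 12197 genes tested, 27.7% were higher and 22.9% lower. Without folic acid 15 were higher, CSF2RB was lower and PLAC8, CD33 and CD68 did not pass, against 21.5% higher and 21.5% lower of all genes. The median difference over the 19 was 1.37 with folic acid and 1.21 without, against 0.0419 and -0.0207 over all genes, which were not restricted to those expressed in both lines. Of the 19, PLAC8, ITGAX, CD86, LILRB2 and CD300A reached 1 FPKM in IMS-M2 only in DMSO groups, and CD86 in U937 only in an OTX group. That favours a higher difference, so the counts and medians of the 19 are a description. Over all 37 members tested, 23 were higher and 6 lower with folic acid (median 0.636), and 20 were higher and 8 lower without (median 0.526).

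On the log2(FPKM + 1) scale the largest differences with folic acid were those of ITGAM (2.61, adjusted p = 9.26e-11), CTSS (2.27, adjusted p = 5.98e-12) and TYROBP (2.201, adjusted p = 4.65e-08). Without folic acid they were those of S100A4 (3.01, adjusted p = 2.51e-09), FCER1G (2.15, adjusted p = 1.08e-09) and TYROBP (2.11, adjusted p = 9.66e-08). The ranking depends on the pseudocount. At 0.1 FPKM the difference with folic acid was 4.22 for ITGAX, 3.39 for CTSS, 3.35 for LILRB2, 3.34 for CD86 and 3.06 for CD300A, and without folic acid 4.50 for CD86 and 3.55 for ITGAX. Genes that were called lower in IMS-M2 and higher in U937 were FCER1G, ITGAM, ITGAX, ITGB2, PLAUR, S100A4 and TYROBP with folic acid, and FCER1G, ITGAM, ITGAX, S100A4, TYROBP and CD86 without. Genes called lower in both lines numbered 8 with folic acid and 9 without. The shares of all genes called lower in both lines or in opposite directions were not computed, so these counts are a description. For PLAC8, whose fall was near-complete in both lines, the difference between lines was 0.42 with folic acid (adjusted p = 0.137) and 0.56 without (adjusted p = 0.0593). It passed at a pseudocount of 0.1 FPKM (1.65 and 1.79, adjusted p = 0.00515 and 0.00331), so its outcome rests on how values under 1 FPKM are weighted.

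Some of these calls depended on 1 library. That of CD33 with folic acid was lost without IMS-M2 DMSO replicate 3, IMS-M2 OTX replicate 2, U937 DMSO replicate 2 or U937 OTX replicate 1 (adjusted p from 0.0525 to 0.0773). That of ITGB2 without folic acid was lost without IMS-M2 OTX replicate 2 (adjusted p = 0.0552). That of LYZ without folic acid was lost without IMS-M2 OTX replicate 3, U937 DMSO column 0 or 1, or U937 OTX column 2 (adjusted p from 0.0547 to 0.0606).

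**Figure D4:**
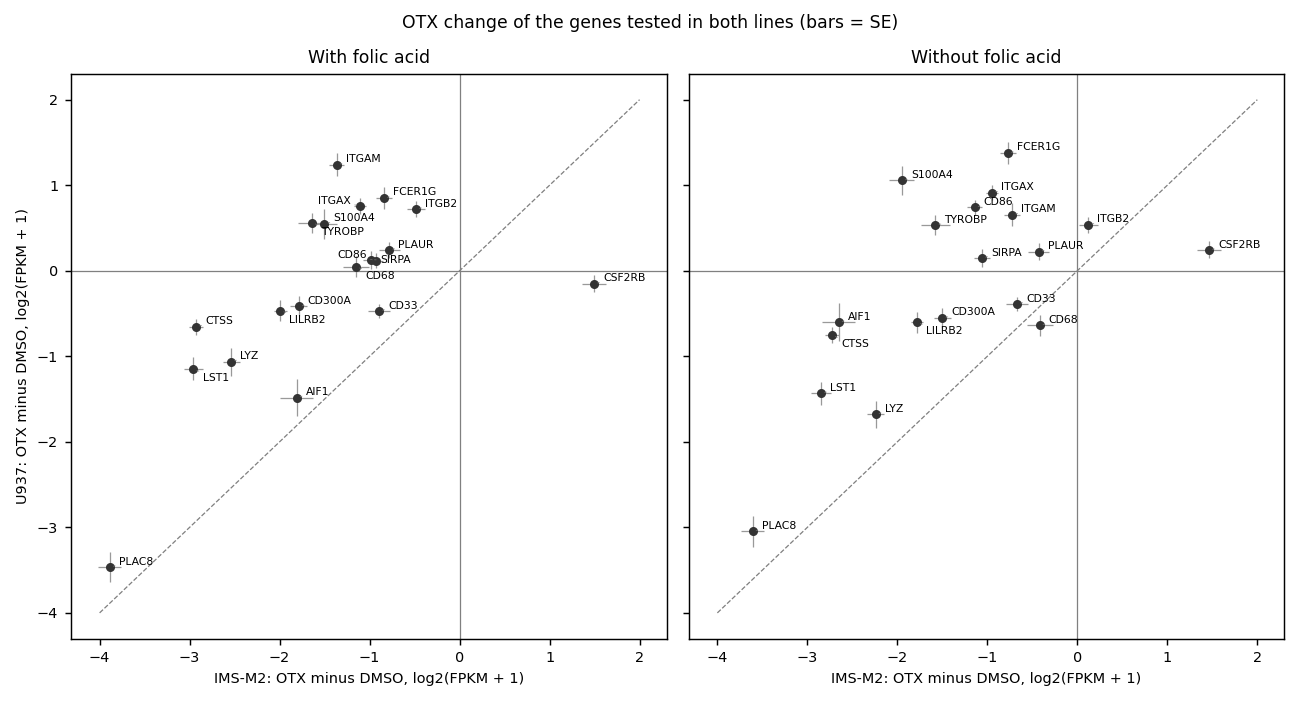
OTX minus DMSO log2 change in U937 (vertical axis) against that in IMS-M2 (horizontal axis), on the log2(FPKM + 1) scale, for the 19 genes tested in both lines, with folic acid (left) and without (right). Bars are standard errors, and the dashed line marks equal changes. Most genes lie above the line, CSF2RB lies below it, and the upper left holds the genes that fell in IMS-M2 and rose in U937.

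The fourth question, the one the series is named for, is whether folic acid changed the response. Few of these genes passed a test of this, and not passing does not show that the response was unchanged. The OTX change without folic acid minus that with it passed for 3 of 21 genes in IMS-M2, all higher: MRC1 (0.62, adjusted p = 0.0127), ITGAM (0.64, adjusted p = 0.0187) and ITGB2 (0.61, adjusted p = 0.0345). ITGAM fell 3.30-fold on the mean with folic acid and 1.93-fold without, and ITGB2 fell with folic acid and did not pass without. For MRC1 the ratio of the means ran the other way, at 45.4-fold with and 57.0-fold without, from DMSO means of 1.28 and 0.454 FPKM to OTX values at or near 0, so the direction depends on how the change is expressed. Over all 11223 genes 6.94% passed, 3.33% as higher and 3.61% as lower. In U937 2 of 35 passed, CD86 as higher (0.62) and CCR2 as lower (-0.50, both adjusted p = 0.0454), against 2.01% of all 11194 genes, 0.741% as higher and 1.27% as lower. For CCR2 too the ratio of the means ran the other way, with a 111-fold fall with folic acid (from 0.425 ± 0.0502 FPKM) and a 32.2-fold fall without (from 1.07 ± 0.159 FPKM), to OTX values near 0. MRC1 reached 1 FPKM only in IMS-M2 +FA DMSO, CCR2 only in U937 -FA DMSO and CD86 only in U937 -FA OTX. Entry through that group favours the sign each of these calls has, so they are a description. The largest differences were those of AIF1 and CD68, which did not pass. AIF1 had -0.84 in IMS-M2 (adjusted p = 0.0624) and 0.88 in U937 (adjusted p = 0.0874). CD68 had 0.73 in IMS-M2 (adjusted p = 0.0513) and -0.69 in U937 (adjusted p = 0.0536). Across all called genes, rescaling the libraries by their median ratio moved the share that was higher from 36.9% to 58.4% in U937 and from 48% to 65.7% in IMS-M2.

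Most of these 5 calls depended on single libraries, and so did the number of calls over all genes. With 1 library left out, that number ran from 82 to 3429 in IMS-M2, against 779 with all libraries. In U937 it ran from 1 to 2704, against 225, so the shares of all genes given above are unstable too. In IMS-M2, the call of ITGAM was lost without -FA DMSO replicate 1 (adjusted p = 0.0503), -FA DMSO replicate 2 (0.0506) or -FA OTX replicate 1 (0.0644). The call of ITGB2 was lost without +FA DMSO replicate 2 or 3, any 1 of the +FA OTX replicates, any 1 of the -FA DMSO replicates, or -FA OTX replicate 1 or 3 (adjusted p from 0.0505 to 0.0985). The call of MRC1 held without each library in turn and was lost at a pseudocount of 0.1 FPKM (1.10, adjusted p = 0.102). In U937, CD86 and CCR2 were both lost without +FA DMSO replicate 2 or 3, any 1 of the +FA OTX replicates, -FA DMSO column 0, -FA OTX column 1 or -FA OTX column 2 (adjusted p from 0.0746 to 0.146). CD86 was also lost without -FA DMSO column 2 (0.0616) and CCR2 without -FA OTX column 0 (0.0543). The OTX changes of the members with and without folic acid lined up closely: across the genes tested, Pearson's r was 0.948 in IMS-M2 (21 genes) and 0.933 in U937 (35 genes), where genes of a comparison share the same libraries and are not independent.

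The fifth question is the level of these genes without and with folic acid. The 4 tables may have been normalised separately, so these levels are set side by side without a test. In U937 DMSO, 32 of 35 genes had the higher mean without folic acid, with a median log2 difference of 0.4013 against 0.04773 over the 11194 genes tested in that line, of which 58.02% had the higher mean without folic acid. In U937 OTX it was 31 of 35, with 0.3829 against 0 and 49.83%. In IMS-M2 DMSO it was 10 of 21, with -0.0171 against -0.0182 and 46.65%, and in IMS-M2 OTX 17 of 21, with 0.1339 against -0.002535 and 49.1%. The largest ratios in U937 DMSO included CD36, at 49.7 ± 2.24 without against 14.4 ± 1.98 FPKM with folic acid, and LYZ, at 1445 ± 273 against 548 ± 105 FPKM. ITGAM stood at 9.82 ± 2.65 against 4.15 ± 0.362 FPKM, and CD68 at 40.6 ± 4.92 against 18.9 ± 2.41 FPKM. In IMS-M2 DMSO, S100A4 stood at 81.1 ± 12.9 FPKM without against 26.0 ± 4.12 FPKM with folic acid, and MRC1 at 0.454 ± 0.109 against 1.28 ± 0.101 FPKM. The libraries of the 2 tables do not overlap for any of these 6. These genes were named for their large differences, and the share of all genes without overlap was not computed, so this is a description. AIF1, PLAC8 and FCN1 were the tested U937 genes with the lower DMSO mean without folic acid, and for AIF1 and FCN1 the libraries overlap between the tables.

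**Figure D5:**
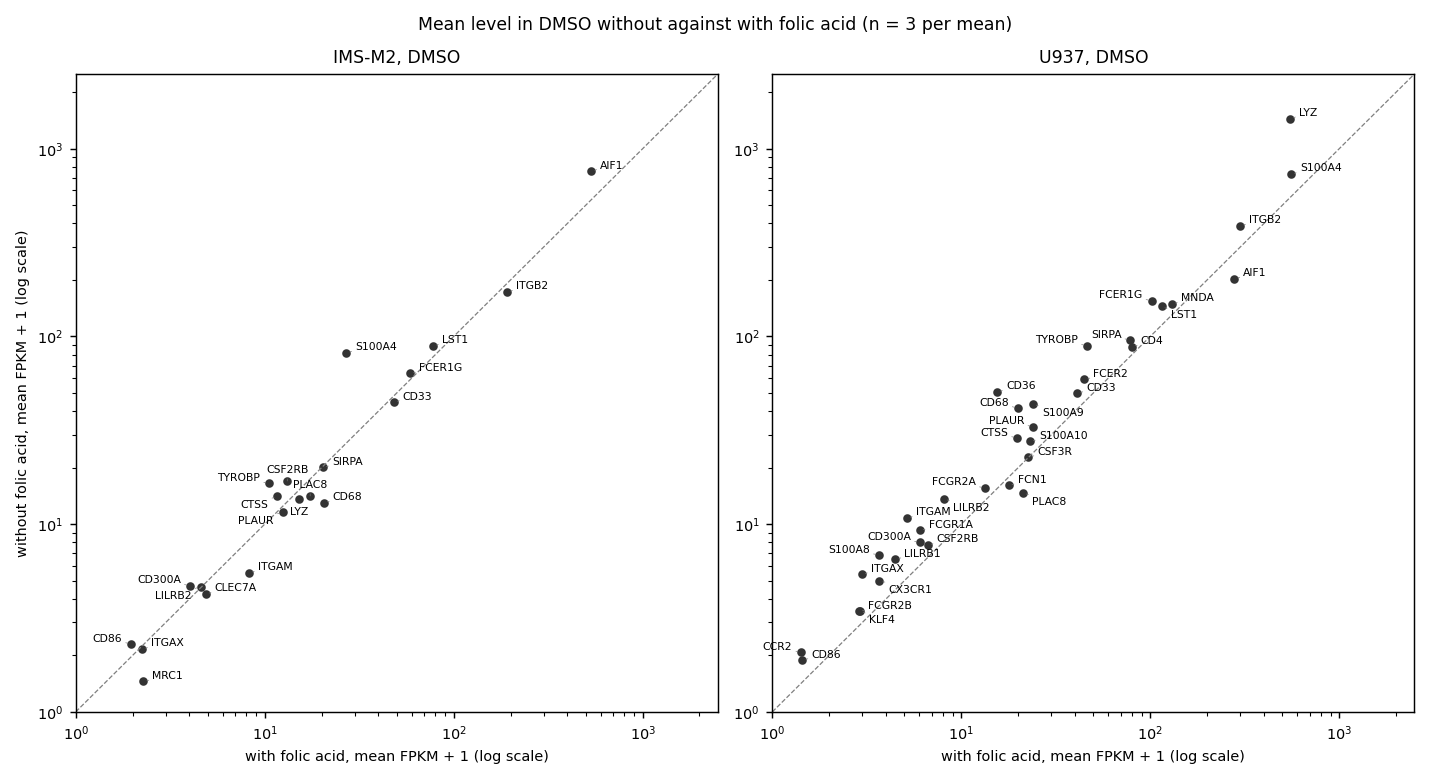
Mean FPKM + 1 in DMSO without folic acid (vertical axis) against with folic acid (horizontal axis), both on log scales, for the genes that reached 1 FPKM in IMS-M2 (left) and in U937 (right). Each point is 1 gene, a mean of 3 libraries per axis, and the dashed line marks equal levels. In U937 nearly all points lie above the line, and in IMS-M2 they lie on both sides with S100A4 farthest above.

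The rest of the monocyte and macrophage programme was followed in a second list of 155 genes, of which 152 are in the tables. This list too was chosen with earlier results of these data known, so its counts are a description. In IMS-M2 +FA 62 of the 90 tested fell and 9 rose, with a median log2 change of -0.598, and in -FA 56 fell and 15 rose, with a median of -0.527. Over all genes 33.4% fell and 29.8% rose in the first comparison and 30% and 27.5% in the second. In U937 +FA 41 of 118 fell and 40 rose, with a median of 0.014, and in -FA 48 fell and 36 rose, with a median of -0.138. Over all genes 27% fell and 29.1% rose in +FA and 31.7% and 28% in -FA. Of the genes tested, 12 in IMS-M2 and 7 in U937 reached 1 FPKM only in DMSO groups, which favours a fall. Another 1 in IMS-M2 and 4 in U937 reached it only in OTX groups, which favours a rise. By role, 23 of the 26 surface receptors tested fell in IMS-M2 under either folic acid condition (0 rose in +FA and 2 in -FA), while in U937 19 of 43 fell and 13 rose with folic acid and 22 fell and 12 rose without. Among lysosomal and secreted products, 19 of 29 fell and 2 rose in IMS-M2 +FA, and 13 fell and 5 rose in -FA. In U937 9 of 35 of these fell and 14 rose in +FA, and 10 fell and 11 rose in -FA. Of the signalling partners, 16 of 28 fell in IMS-M2 in either condition, while 5 rose in +FA and 7 in -FA. In U937 8 of 29 fell and 11 rose in +FA, and 10 fell and 11 rose in -FA.

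In IMS-M2 +FA the falls with the smallest adjusted p were those of LSP1 (log2 change -3.46), CLEC12A (-2.99), BTK (-2.37) and PTPN6 (-2.72). LSP1 binds actin in leukocytes, CLEC12A is an inhibitory lectin of myeloid and leukaemic cells, and BTK and PTPN6 are a kinase and a phosphatase of immune receptor signalling. The rises were those of SOCS3 (2.08), STAT3 (0.74), CEBPB (1.23) and HCLS1 (0.47). SOCS3, the feedback inhibitor of JAK-STAT signalling, went from 20.2 ± 3.23 to 88.5 ± 6.94 FPKM (mean ± SD, n = 3). In IMS-M2 -FA, LSP1, CLEC12A and BTK fell again by similar amounts (-3.44, -2.79 and -2.13), with CD93 (-2.85). SOCS3 and STAT3 rose again (1.61 and 0.74), with the lysosomal genes PSAP (0.91) and IFI30 (0.51).

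In U937 +FA the falls were those of TFEC (-1.86), IRF8 (-2.00), CLEC5A (-1.75) and BTK (-1.25), and the rises those of LGALS1 (2.12), CFD (1.21), EMR2 (0.99) and INPP5D (0.93). IRF8, which directs progenitors to the monocyte fate, went from 53.4 ± 1.60 to 12.7 ± 0.925 FPKM. LGALS1, a galactose-binding lectin, went from 1120.0 ± 249.2 to 4795 ± 479 FPKM (mean ± SD, n = 3). In U937 -FA the falls were those of TFEC (-2.12), CHI3L1 (-2.17), FGR (-1.78) and MS4A7 (-2.37), and the rises those of KLF2 (2.48), LILRA6 (1.08), STAT3 (0.94) and EMR2 (0.81). All of these passed, with a largest adjusted p of 0.000452 (IFI30). BTK is the 1 gene named both in IMS-M2 and in U937 +FA as lower.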

How the data were processed

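Gene expression was measured by RNA-seq of polyadenylated RNA (TruSeq Stranded mRNA kit, per the labels' protocols) in 24 libraries. The authors deposited FPKM values per gene in 4 tables, 1 for each line and folic acid condition. Cuffdiff 2.2.1, TopHat2 2.1.1, bcl2fastq 2.17.1.14 and the build hg19 are listed without roles in the submitters' processing notes, and whether the tables were normalised together is not given in the sources used here. FPKM is relative to the whole library, so a change in abundant transcripts shifts all others. The table headers name no unit. The columns of U937 -FA are numbered 0 to 2 while the labels run from 1 to 3, so each was assigned to its group only and is called a column here.

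Values were tested as log2(FPKM + 1) with limma 3.58.1 in R 4.3.3 (group means, empirical Bayes with an intensity trend). Fold changes on this scale understate the change of low genes. A gene was tested where a group mean reached 1 FPKM in the libraries fitted, and p-values were adjusted over all tested genes by the Benjamini-Hochberg method. An adjusted p under 0.05 is a call. The 12 libraries of a line were fitted for the OTX and folic acid contrasts, and all 24 for the difference between lines. The steps were tested on simulated data. All 41 genes are named. Those reaching a group mean of 5 FPKM in a line are given by library, those between 1 and 5 FPKM by group means, and those under 1 FPKM by range, and some others are also given by library. From the second list, up to 4 genes per direction with the smallest adjusted p are named. The members and lists were chosen with earlier results of these data known. Alternatives were a pseudocount of 0.1 FPKM, no filter, a filter at 5 FPKM, rescaling, no trend, a fit within 1 table, a replicate block and leaving out each library. Promoter windows come from RefSeq (GRCh38.p14), whereas the tables' loci are in hg19. Some marker results are not reported here.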

Additional observations from a re-analysis of the deposited data

Results flagged for a closer look

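Differences in the OTX response between conditions or lines are collected here, each a difference of log2 changes that passed the test of the difference itself (limma, adjusted p under 0.05). Between folic acid conditions, the OTX change without folic acid minus that with it was 0.61 for ITGB2, 0.62 for MRC1 and 0.64 for ITGAM in IMS-M2. In U937 it was 0.62 for CD86 and -0.50 for CCR2. For MRC1 and CCR2 the ratio of OTX to DMSO means runs the other way: MRC1 fell 45.4-fold with folic acid and 57.0-fold without, and CCR2 110.6-fold with and 32.2-fold without, all to OTX values at or near 0 FPKM. Adjusted p ran from 0.0127 (MRC1) to 0.0454 (CD86 and CCR2). MRC1, CCR2 and CD86 each reached 1 FPKM in only 1 group of that line, which favours the sign of these differences.

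Between lines with folic acid, the OTX change in U937 minus that in IMS-M2 was above 2 for 4 genes: ITGAM (2.61), CTSS (2.27), TYROBP (2.201) and S100A4 (2.05). It was 1.86 for ITGAX, 1.81 for LST1, 1.69 for FCER1G, 1.53 for LILRB2 and 1.47 for LYZ. It was 1.37 for CD300A, 1.21 for ITGB2, 1.20 for CD68, 1.11 for SIRPA, 1.05 for CD86 and 1.03 for PLAUR. The smallest positive difference was 0.42 for CD33 (adjusted p = 0.0224), and CSF2RB had the opposite sign at -1.64 (adjusted p = 1.9e-07).

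Without folic acid, the same difference was 3.01 for S100A4, 2.15 for FCER1G, 2.11 for TYROBP and 2.05 for AIF1. It was 1.97 for CTSS, 1.88 for CD86, 1.86 for ITGAX, 1.41 for LST1 and 1.38 for ITGAM. It was 1.21 for SIRPA, 1.18 for LILRB2, 0.95 for CD300A and 0.65 for PLAUR. The smallest were 0.56 for LYZ (adjusted p = 0.0242) and 0.41 for ITGB2 (adjusted p = 0.0181), and CSF2RB stood at -1.22 (adjusted p = 1.16e-05). The folic acid calls of ITGB2, ITGAM, CD86 and CCR2 and the line calls of CD33, ITGB2 and LYZ were lost when single libraries were left out, with the values given in the report. ITGAX, CD86, LILRB2 and CD300A reached 1 FPKM in IMS-M2 only in DMSO groups, which favours a higher difference between lines.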

How the results depend on the processing

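No called change of a named gene turned its sign under any alternative run. Without the intensity trend, all 206 gene values kept their call. Most also kept it with a pseudocount of 0.1 FPKM (197 of 206), no filter on low values (202 of 206), a filter at 5 FPKM (170 of 171), rescaling (203 of 206) and a fit within 1 table (105 of 108). The count of genes higher under OTX in IMS-M2 +FA was 1 and became 2 with no filter. The counts that differed between folic acid conditions were small and moved most. In IMS-M2 the higher count was 3 and became 5 at a pseudocount of 0.1 FPKM, where CD300A, CTSS and LILRB2 were gained and MRC1 was lost (adjusted p = 0.102). In U937 the higher count of 1 and the lower count of 1 both became 0 at that pseudocount and 0 at a filter of 5 FPKM, and the lower count became 2 with no filter. With 1 library left out, these counts ran from 1 to 5 higher and 0 to 2 lower in IMS-M2, and from 0 to 6 higher and 0 to 5 lower in U937. The cause was not tested. A pseudocount of 0.1 FPKM enlarged 7 called OTX changes by over 1.5 times in each IMS-M2 comparison, all of genes under 1 FPKM under OTX. It also enlarged differences between lines by over 1.5 times for 4 genes with folic acid (CD300A, CD86, ITGAX and LILRB2, by up to 3.18 times for CD86) and for 5 without (the same 4 and LYZ). In U937 it enlarged the OTX change of CCR2 to -2.34 with folic acid and -3.15 without and that of CD86 to 1.19 without, and the folic acid difference became 1.10 for MRC1 in IMS-M2 and -0.81 for CCR2, neither of which passed. Further calls were gained by S100A8 (adjusted p = 0.0453) in U937 +FA at that pseudocount, by S100A8 and KLF4 in a fit of that table alone (0.0349 and 0.0406), and by CSF2RB and PLAUR in U937 -FA after rescaling (0.0406 and 0.0294). CD68 was gained in the folic acid comparison of IMS-M2 at a filter of 5 FPKM (0.0471). The depth is unknown, so no counting error can be given for low values.

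Same-numbered OTX and DMSO libraries did not deviate together in every pair: the correlation of their deviations was 0.0517, 0.278 and 0.0734 in IMS-M2 +FA, 0.0755, 0.213 and 0.191 in IMS-M2 -FA and -0.336, 0.13 and -0.239 in U937 +FA. In IMS-M2 each library correlated best with its own number, and in U937 +FA none did. With the replicate block, the U937 +FA higher count was 7 in place of 11, with FCGR2A (adjusted p = 0.0531), LILRB1 (0.0943), PLAUR (0.0706) and S100A4 (0.101) not passing. The IMS-M2 folic acid comparison gained 1 lower gene, AIF1 (0.0355), and CD68 as higher (0.0122). U937 -FA columns carry no label numbers and were not blocked.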
